A study of Mus musculus with 93 samples.

Results

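Growth hormone (GH) acts on the liver through its receptor, and the liver answers with circulating insulin-like growth factor 1. The levels of 10 genes of this axis are described here in liver RNA of male mice from 7 inbred strains on 2 diets. They are Ghr, Stat5b, Igf1, Igfals, Igfbp1, Igfbp2, Igfbp3, Socs2, Cish, and Socs3, chosen by name and matched by Ensembl identifier among the 53465 genes counted. All 10 were found and all 10 passed the filter on low counts, which left 19110 genes tested.

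Igfbp1 and Igfbp2, the insulin-repressed binding proteins, fell on Western diet (WD) in 5 and 4 of the 7 strains, whereas Ghr, the receptor, and Igf1 each passed the test in 1 strain, with smaller changes, and Igfals in none. The calls of Ghr and Igf1, and those of Igfbp1 in A/J and C57BL/6J, were lost on leaving out single mice, and 4 of the 5 Igfbp1 calls were lost without the filter on low counts. Igfbp3 rose in C57BL/6J and A/J, and the feedback genes Socs2 and Cish rose in 129S1/SvImJ. Socs2 had negative estimates in the other 6 strains and fell in the mean over strains (log2 fold change -0.47). Strain took a larger share of the sum of squares than diet in each of the 10 genes, a share not scaled for there being 7 strains and 2 diets.

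GH binds its receptor, encoded by Ghr, which activates the kinase JAK2. JAK2 then phosphorylates the transcription factor STAT5B, which drives Igf1 and Igfals in hepatocytes. IGF-1 travels in blood bound to binding proteins, mainly IGFBP3, and the acid-labile subunit encoded by Igfals holds the pair in a long-lived complex. IGFBP1 and IGFBP2 also bind IGFs, and insulin represses their genes in liver, for Igfbp1 through FOXO1. Socs2 and Cish are STAT5 targets whose products dampen GH signaling, and Socs3 does the same downstream of interleukin-6 (IL-6) and STAT3 as well as GH.

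The mice were C57BL/6J, DBA/2J, A/J, 129S1/SvImJ, and the wild-derived WSB/EiJ, CAST/EiJ, and PWK/PhJ, all male and unmanipulated genetically. All were housed at 30°C, thermoneutrality (TN) for mice, starting at 6 wk, and received a control diet (CD, 10% of energy from fat) or WD (40%) from 7 wk for 17 wk. They were sacrificed at 24 wk after a 4-h fast, so levels after feeding were not measured. C57BL/6J had 8 mice on each diet and WSB/EiJ 6. On CD and WD, respectively, there were 6 and 7 DBA/2J mice, 6 and 7 PWK/PhJ mice, 5 and 6 A/J mice, 7 and 6 mice of 129S1/SvImJ, and 7 and 8 of CAST/EiJ. Mice of a strain were split over 2 cohorts (3 in CAST/EiJ), with both diets present in every cohort. No cohort held all strains, and WSB/EiJ shared none with another strain. Differences between strains therefore cannot be fully told apart from differences between cohorts.

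Both DNA windows below show letters that belong to these pathways in the promoters of Igfbp1 and Cish, which had the largest called fall and the largest called rise of the 10 genes within a single strain. They are RefSeq windows on GRCm38.p6, from 250 bases before the annotated start to 50 after it, printed 5′ to 3′ on the gene's strand. Capitals mark AAAACAA, searched on both strands as the letters of a FOXO site, or TTCNNNGAA, the palindromic letters of a STAT site. The Igfbp1 window is chr11:7197537-7197836 (plus strand), and the Cish window is chr9:107296409-107296708 (plus strand).
Igfbp1: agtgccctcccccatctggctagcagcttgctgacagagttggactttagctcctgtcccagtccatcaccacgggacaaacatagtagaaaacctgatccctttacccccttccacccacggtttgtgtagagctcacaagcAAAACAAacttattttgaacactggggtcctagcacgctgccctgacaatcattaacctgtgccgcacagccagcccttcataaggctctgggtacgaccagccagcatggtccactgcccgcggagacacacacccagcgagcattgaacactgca
Cish: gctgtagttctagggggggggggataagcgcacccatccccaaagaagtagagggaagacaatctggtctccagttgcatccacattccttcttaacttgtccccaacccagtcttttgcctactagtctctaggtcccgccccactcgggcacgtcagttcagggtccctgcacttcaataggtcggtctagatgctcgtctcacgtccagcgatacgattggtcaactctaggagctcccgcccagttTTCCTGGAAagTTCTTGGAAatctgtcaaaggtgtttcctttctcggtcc

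AAAACAA lay 107 to 101 bases before the Igfbp1 start, and TTCNNNGAA occurred at bases 0 to 8 and 11 to 19 from the Cish start, where 0 is the start itself. The tables held 14 windows for 9 of the 10 genes, all but Socs2. TTCNNNGAA was also found in both upstream Igfals windows, 236 to 228 and 58 to 50 bases before their starts, and 154 to 146 bases before that of Socs3. AAAACAA was found in 1 further window, 142 to 136 bases before the downstream start of Stat5b. Of 32851 promoter windows of 300 bases in mouse, 8.3% held TTCNNNGAA and 9.02% held AAAACAA, so a match by itself is common. None of these windows was assayed for binding.

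Reads on genes, in units of 1e6, ranged from 40.0 to 49.9 per mouse (median 46.6), which put between 40 and 77900 reads on each of the 10 genes. Levels are given as CPM, counts scaled to a library of 1e6 reads, after TMM scaling of library sizes. Reads of all strains were mapped to the C57BL/6J genome, and the median share left unmapped was 2.20% in A/J, 2.39% in C57BL/6J, and 12.5% in CAST/EiJ, with the other strains between 5.16 and 6.05%. The part of mapping in strain differences was not tested. Ddx3y, on the Y chromosome, was at least 50.1 CPM and Xist at most 3.44 CPM in all 93 mice, as the label male requires. The hepatocyte marker Alb was at 37566 CPM or more in each mouse. Hepatocyte markers fell on WD (8 of 9 tested in the mean of the 7 strains, 24.5% of all genes) while macrophage markers rose (7 of 10, 27.1%). Fewer hepatocytes cannot be told apart here from less of an RNA per hepatocyte. A pair of mice stood apart. C57BL/6J CD replicate 2 had 178 CPM of Gpnmb, a macrophage gene, against 0.591 to 7.88 in its 7 groupmates, and WSB/EiJ WD replicate 4 had 10892 CPM of the acute-phase gene Saa1 against 46.4 to 305. Counts of called genes within both strains are given with and without them where they change. Without the former, 1 of the 10 genes rose and 2 fell in C57BL/6J. Among all genes 3175 rose and 2570 fell in that fit, against 2728 and 2270 with the mouse. Without the latter, 1 rose and 0 fell in WSB/EiJ, and among all genes 946 and 705, against 950 and 758 with it.

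Within this axis, Igfbp2 was highest per length of exon, at a median of 228 CPM per kb over the 93 mice. The length was the union of all annotated exons of a gene, which can be longer than its main mRNA. Igf1 (61.7 CPM per kb), Ghr (59.4), Igfbp1 (53.0), and Igfals (34.0) came next. Stat5b (11.5 CPM per kb), Igfbp3 (9.36), Socs3 (4.93), Socs2 (2.44), and Cish (1.01) were lower by this measure.

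WD against CD was tested within each strain with limma-voom, and a gene was called where its p, adjusted across the 19110 genes, was under 0.05. Of the 10 axis genes, 18 of the 70 combinations of gene and strain were called. In C57BL/6J, 2 rose (14.3% of all genes tested rose) and 3 fell (11.9% of all genes). In DBA/2J, 0 rose (10.2%) and 3 fell (7.77%). In A/J, 1 rose (4.39%) and 2 fell (4.64%), and in 129S1/SvImJ, 2 rose (14.5%) and 3 fell (13.6%). The wild-derived strains had fewer, with 0 up (4.97%) and 0 down (3.97%) in WSB/EiJ, 0 up (9.77%) and 1 down (9.73%) in CAST/EiJ, and 0 up (15.1%) and 1 down (14.5%) in PWK/PhJ. In the mean over the strains, 2 rose (27.1%) and 4 fell (24.5%). Without C57BL/6J CD replicate 2, 5 fell, and 5073 of all genes did so against 4680 with it. The diet effect differed between strains for 5 of the 10 genes by an F test (37.5% of all genes). Most of these shares lie near those of all genes, so the results below concern single genes.

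**Figure D1:**
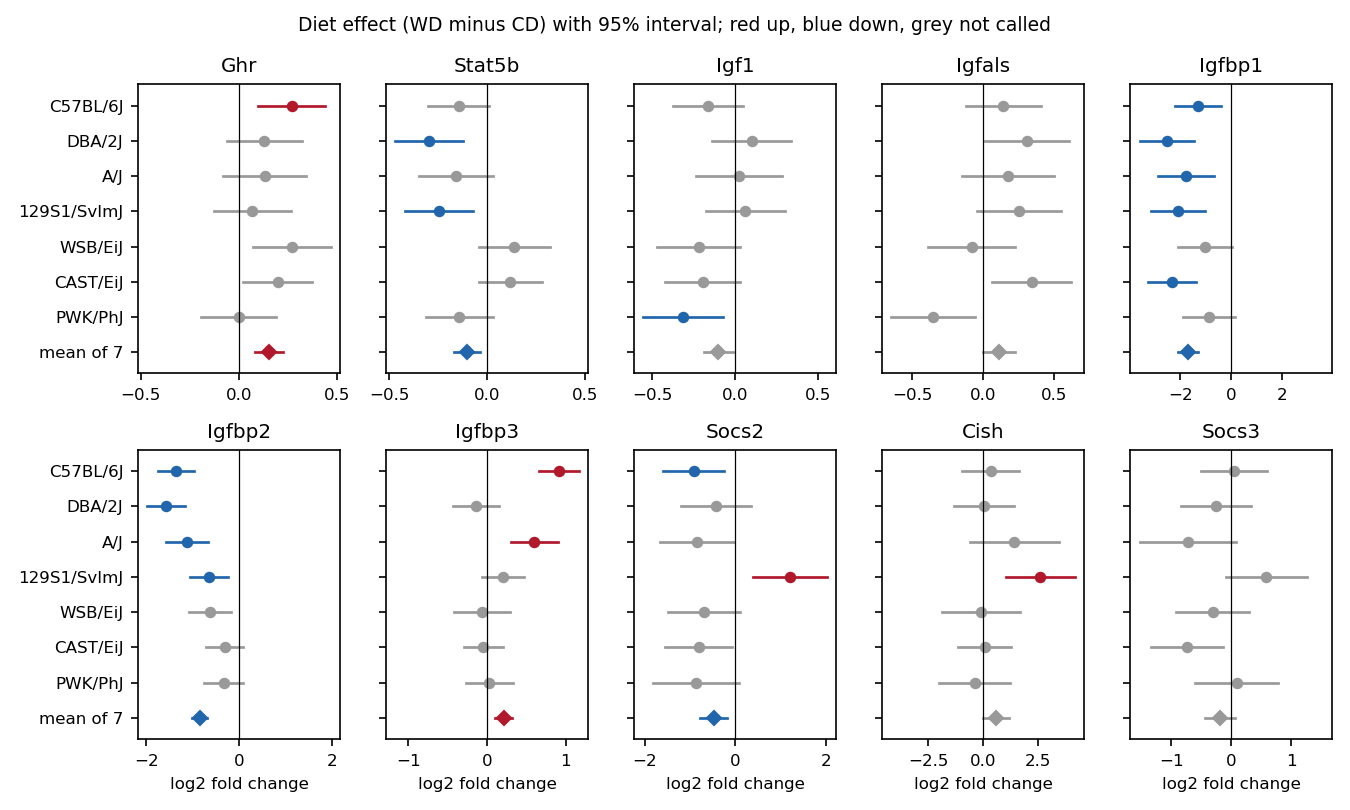
Log2 fold change of WD against CD (horizontal axes, each panel with its own scale) for each of the 10 genes in the 7 strains, with 95% intervals from limma-voom. Red points rose, blue points fell, and grey points were not called at an adjusted p of 0.05, and the diamond is the mean over strains. All 7 estimates of Igfbp1 and of Igfbp2 lie below 0, and Cish has the widest intervals.

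Igfbp1 (chromosome 11, 7197782 to 7202546, GRCm38, plus strand) encodes the binding protein that insulin represses most acutely, and its level had the widest range of the 10 genes, from 7.17 to 2101 CPM. It fell in 5 strains and its estimate was below 0 in all 7, with a mean log2 fold change of -1.71 ± 0.20 (SE, adjusted p = 5.71e-12). In DBA/2J the 6 CD mice ranged from 44.8 to 133 CPM (median 82.0) and the 7 WD mice from 10.0 to 18.6 (median 13.1). The groups did not overlap, and the log2 fold change was -2.53 ± 0.54 (adjusted p = 0.000321). In 129S1/SvImJ the range was 28.0 to 165 CPM (median 72.6) on CD and 7.17 to 44.7 (median 13.8) on WD. Of its 6 WD mice, 5 lay below every CD mouse, for a log2 fold change of -2.09 ± 0.54 (adjusted p = 0.00168).

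CAST/EiJ had the highest and most uneven Igfbp1 on CD, 67.2 to 2101 CPM with a median of 424, against 32.5 to 188 (median 57.9) on WD. Its log2 fold change was -2.33 ± 0.48 (adjusted p = 0.000157), and it lay between -3.07 and -0.10 in the 3 cohorts taken singly. The call held without any 1 of its mice and under all 10 other settings. The A/J values were lower and also uneven. In its 5 CD mice Igfbp1 was 129, 235, 49.6, 87.2, and 50.2 CPM, against 16.2 to 51.7 (median 26.8) in the 6 WD mice. Here 1 WD mouse reached into the CD range, and the log2 fold change was -1.79 ± 0.55 (adjusted p = 0.0277). That call was lost when any of 5 of the 11 A/J mice was left out (CD replicates 1 and 2 and WD replicates 1, 3, and 6). Without the filter on low counts, the Igfbp1 calls in A/J, 129S1/SvImJ, DBA/2J, and C57BL/6J did not pass (adjusted p of 0.282, 0.122, 0.0752, and 0.0734), with log2 fold changes of -1.77, -2.11, -2.52, and -1.34.

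In C57BL/6J, Igfbp1 went from 75.1 to 442 CPM (median 169) on CD to 30.0 to 199.6 (median 64.7) on WD, a log2 fold change of -1.31 ± 0.46 (adjusted p = 0.024). The top CD value belonged to the mouse with high Gpnmb. Without it the log2 fold change was -1.10 (adjusted p = 0.0625), and leaving out WD replicate 1 or 4 also ended the call. WSB/EiJ and PWK/PhJ did not pass. WSB/EiJ had 120.1 to 391 CPM (median 334) on CD and 34.3 to 422 (median 138) on WD, for an interval of the log2 fold change from -2.09 to 0.03. PWK/PhJ had 76.3 to 307 CPM (median 144) and 46.2 to 162 (median 86.7), for an interval from -1.88 to 0.14. Both intervals hold the estimates of C57BL/6J and A/J, but not those of DBA/2J, CAST/EiJ, and 129S1/SvImJ, and the F test gave no call for a difference between strains (adjusted p = 0.241).

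Igfbp2 (chromosome 1, 72824503 to 72852474, plus strand) encodes the binding protein whose gene had the highest median CPM per kb of exon in the axis. It fell in 4 strains, C57BL/6J, DBA/2J, A/J, and 129S1/SvImJ, the 4 classical laboratory strains, and its mean log2 fold change was -0.85 ± 0.08 (adjusted p = 1.79e-15). In DBA/2J it was 250.1 to 670.2 CPM (median 456) on CD and 112 to 192 (median 138) on WD, a log2 fold change of -1.57 ± 0.21 (adjusted p = 9.16e-09). In C57BL/6J the range was 451 to 858 CPM (median 601) on CD and 162 to 346 (median 211) on WD, a log2 fold change of -1.36 ± 0.19 (adjusted p = 3.87e-08). The diets did not overlap in either strain, nor did they in 129S1/SvImJ, where the fall was smaller, from 285 to 378 CPM (median 326) to 173 to 260.5 (median 205), at -0.65 ± 0.21 (adjusted p = 0.0129, or 0.0859 without the filter on low counts).

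In A/J, Igfbp2 was 606, 760, 454, 526, and 611 CPM in the 5 CD mice and 164 to 479 (median 248) in the 6 WD mice. All but 1 WD mouse lay below the CD mice, and the log2 fold change of -1.12 ± 0.23 (adjusted p = 0.000503) held without any 1 mouse. WSB/EiJ had the most Igfbp2 on both diets, 765 to 1233 CPM (median 1059) on CD and 452 to 965 (median 684) on WD. There 5 of 6 WD mice lay below all CD mice, yet the log2 fold change of -0.62 ± 0.23 did not pass (adjusted p = 0.0738), and it passed under 4 of the alternatives. CAST/EiJ (-0.31, interval -0.71 to 0.08) and PWK/PhJ (-0.33, interval -0.76 to 0.09) overlapped widely between diets. The diet effect of Igfbp2 differed between strains (F test adjusted p = 0.000485).

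**Figure D2:**
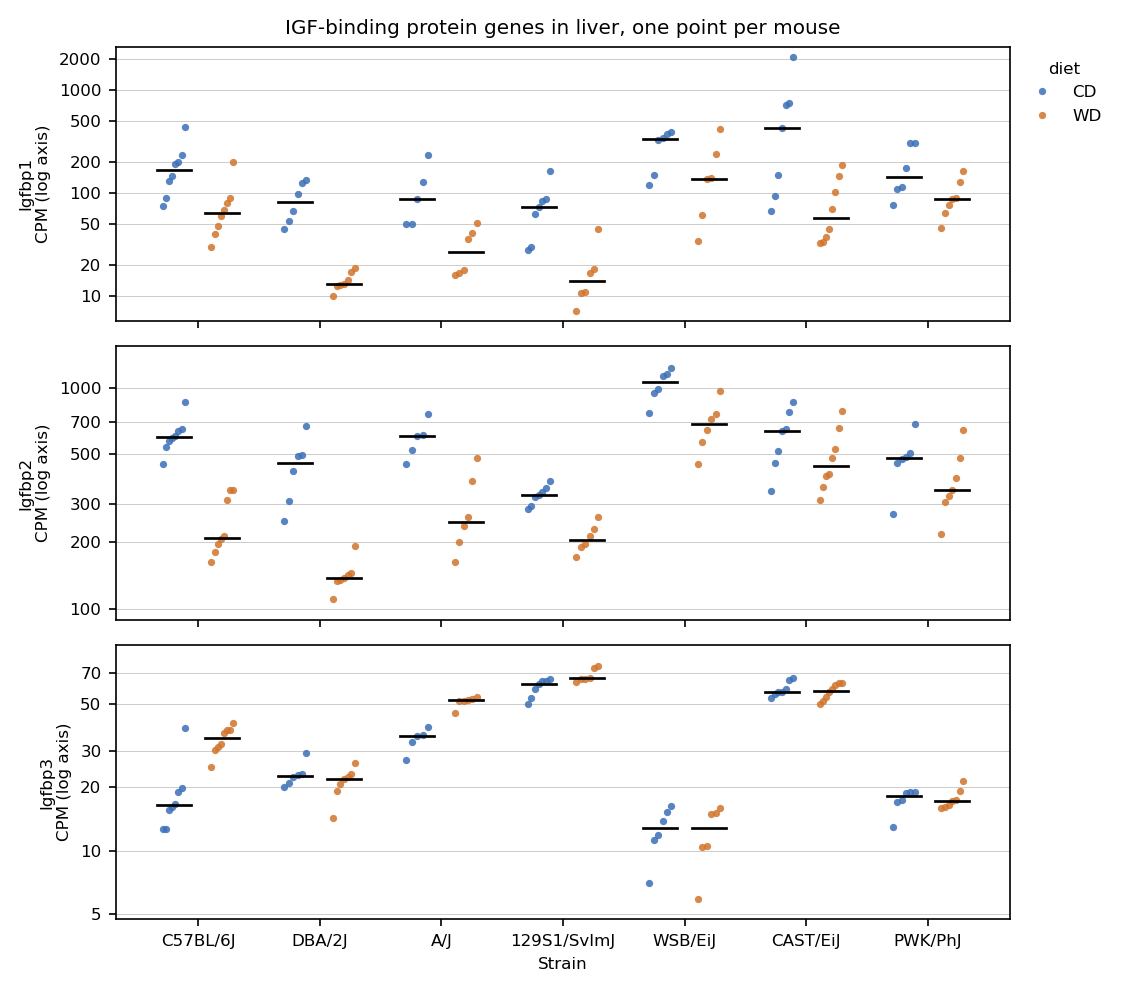
Igfbp1, Igfbp2, and Igfbp3 in CPM (vertical log axes) for the 14 groups of strain and diet, with 1 point per mouse in order of level and a black line at the group's median. Igfbp2 does not overlap between diets in C57BL/6J, DBA/2J, and 129S1/SvImJ, and Igfbp3 differs more between strains than between diets.

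Igfbp3 (chromosome 11, 7206086 to 7213923, minus strand) lies next to Igfbp1 and encodes the main carrier of IGF-1 in blood, which in liver comes mostly from nonparenchymal cells. It rose in 2 strains. In C57BL/6J the CD mice had 12.6 to 38.6 CPM (median 16.4) and the WD mice 25.0 to 40.6 (median 34.3), for a log2 fold change of 0.91 ± 0.13 (adjusted p = 4.01e-08). The groups overlapped through CD replicate 2 alone, whose 38.6 CPM stood above its groupmates at 12.6 to 19.8. Without that mouse the log2 fold change was 1.08. In A/J the 5 CD mice had 39.0, 26.9, 35.7, 35.2, and 33.0 CPM and the 6 WD mice 45.4 to 53.8 (median 52.1), without overlap, for a log2 fold change of 0.60 ± 0.15 (adjusted p = 0.00449). Both calls held without any 1 mouse and under all 10 other settings.

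In the other 5 strains the Igfbp3 estimates lay between -0.14 (DBA/2J) and 0.20 (129S1/SvImJ), none called, and the difference between strains was (F test adjusted p = 2.68e-05). Macrophage and stellate cell markers rose in the same comparisons, 5 of 10 and 4 of 8 in C57BL/6J (14.3% of all genes rose). Without CD replicate 2 the counts were 5 of 10 and 5 of 8, and 3175 of all genes rose. In A/J the counts were 1 of 10 and 2 of 8 (4.39%). These markers also rose where Igfbp3 did not, 7 of 10 and 3 of 8 in 129S1/SvImJ (14.5%) and 6 of 10 and 3 of 8 in PWK/PhJ (15.1%). The summed level of the 8 stellate cell and fibroblast markers was 129.8 to 451 CPM on CD (up to 192 without CD replicate 2) and 158 to 666 on WD in C57BL/6J, and 94.4 to 124 and 134 to 173 in A/J. The part of these cells in the Igfbp3 levels was not tested.

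Ghr (chromosome 15, 3317760 to 3583492, minus strand) encodes the GH receptor. It was among the steadiest of the 10 genes, with a median coefficient of variation within groups of 8.01%. Its mean diet effect was a rise of 0.15 ± 0.04 on the log2 scale (adjusted p = 0.000254), with 6 of 7 estimates above 0. Only C57BL/6J passed on its own. There the CD mice had 269 to 503 CPM (median 408) and the WD mice 291 to 527 (median 486), at 0.27 ± 0.09 (adjusted p = 0.0134). The groups overlapped almost fully, and the call was lost without CD replicate 2, 4, or 6 (adjusted p of 0.0523, 0.0593, and 0.0559) and in a fit of the strain alone (0.261). WSB/EiJ had an estimate of the same size, from 437 to 567 CPM (median 483) on CD to 446 to 651 (median 606) on WD (0.27 ± 0.10, adjusted p = 0.072). Without the mouse with high Saa1, which had the lowest Ghr of its group, the log2 fold change was 0.35 (adjusted p = 0.0156).

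Stat5b (chromosome 11, 100780731 to 100850724, minus strand) encodes the transcription factor that carries the GH signal to the nucleus. It was expressed at 50.5 to 108 CPM in all mice. WD lowered it in DBA/2J, from 64.6 to 108 CPM (median 82.7) to 62.96 to 79.1 (median 64.8), by -0.30 ± 0.09 (adjusted p = 0.0106). It also fell in 129S1/SvImJ, from 60.6 to 77.0 CPM (median 66.2) to 54.0 to 61.7 (median 57.4), by -0.24 ± 0.09 (adjusted p = 0.0271). The groups overlapped in both strains. The DBA/2J call was lost without CD replicate 1 (adjusted p = 0.0903). The 129S1/SvImJ call was lost without CD replicate 1 or WD replicate 5 or 6 and with upper-quartile scaling (adjusted p = 0.113) or no filter on low counts (0.0537). The estimates were positive in WSB/EiJ (0.14) and CAST/EiJ (0.12), neither called, and the diet effect differed between strains (F test adjusted p = 0.00956).

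Igf1 (chromosome 10, 87858265 to 87937042, plus strand), the liver's main endocrine output of the axis, changed little with diet. Its mean log2 fold change was -0.10 ± 0.05 (adjusted p = 0.0565). This fall lay at the threshold, as it passed with quality weights (adjusted p = 0.0114) and in 19 of 82 fits without 1 mouse, among them those without DBA/2J CD replicate 1 (0.0165) and C57BL/6J CD replicate 2 (0.032). PWK/PhJ alone passed, with 669 to 801 CPM (median 761) on CD and 492 to 813 (median 586) on WD, at -0.31 ± 0.12 (adjusted p = 0.0425). Of its 7 WD mice, 5 lay below every CD mouse and 1 above. The call was lost under 5 of 10 other settings and without any of 9 of the 13 mice (adjusted p up to 0.106). In the 3 strains with positive estimates, DBA/2J (0.10), 129S1/SvImJ (0.06), and A/J (0.03), the 95% intervals allowed rises up to 0.34 on the log2 scale.

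Igfals (chromosome 17, 24865997 to 24882010, plus strand), which encodes the acid-labile subunit, was called in none of the 7 strains. The estimates nevertheless went both ways, and the F test called a difference between strains (adjusted p = 0.0416). In CAST/EiJ it was 91.4 to 175 CPM (median 141) on CD and 138 to 201 (median 172) on WD (0.34 ± 0.14, adjusted p = 0.0725). In PWK/PhJ it was 76.3 to 110.5 CPM (median 102) and 54.3 to 112 (median 75.0), at -0.35 ± 0.15 (adjusted p = 0.063). The ranges overlapped in both strains, and both estimates passed under some alternatives. The mean over strains (0.11, adjusted p = 0.0856) also passed with upper-quartile scaling (0.0354), with at least 10 counts in every mouse (0.0427), with cohort as a covariate (0.0431), and without C57BL/6J CD replicate 7 (0.0398) or DBA/2J CD replicate 2 (0.0444). Without the CAST/EiJ and PWK/PhJ groups the F test no longer called Igfals or Stat5b.

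**Figure D3:**
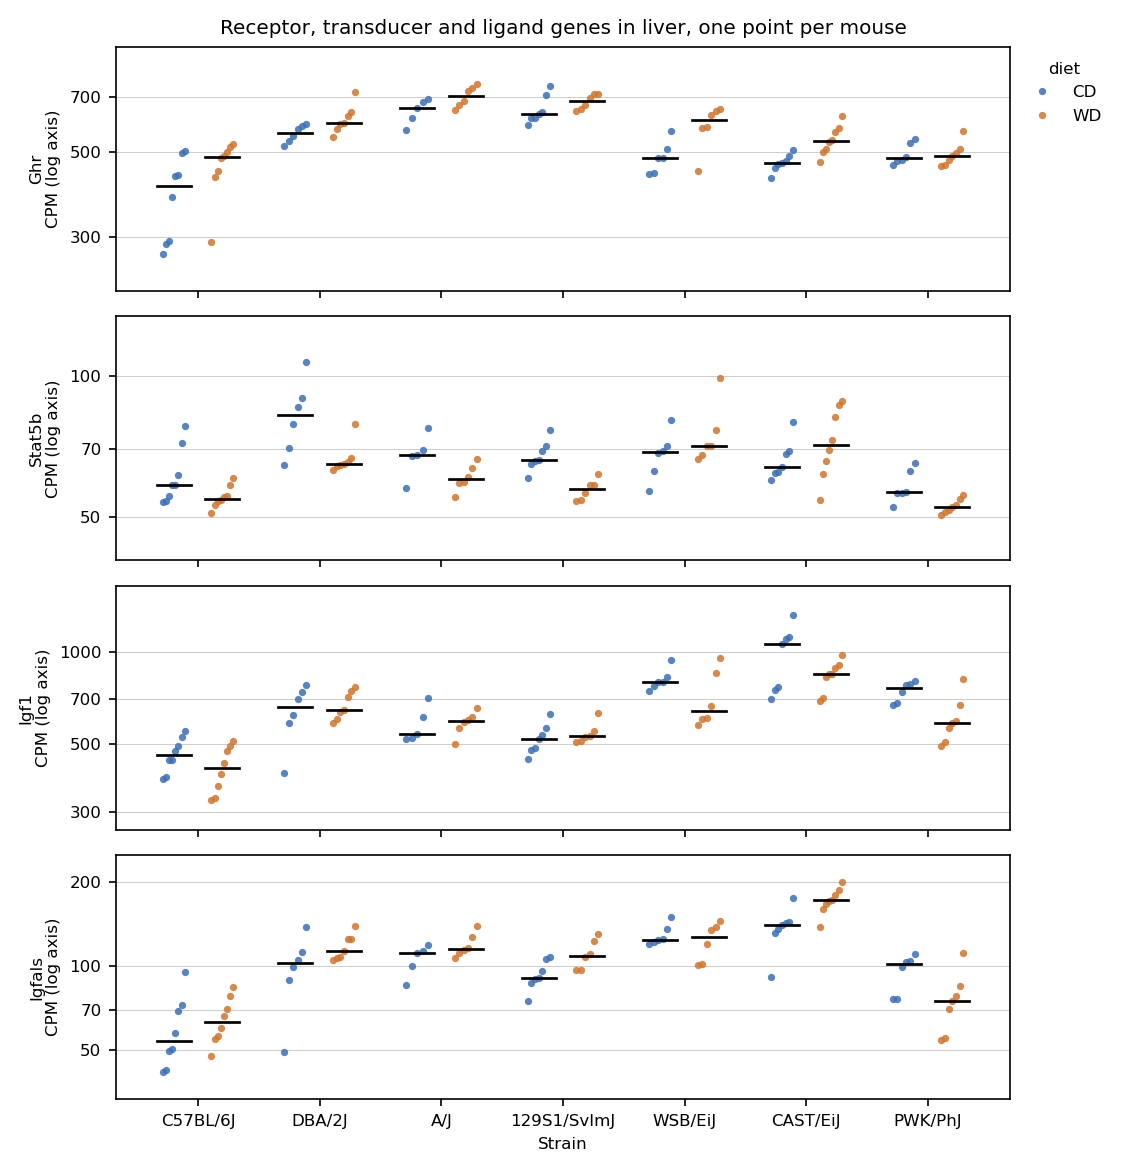
Ghr, Stat5b, Igf1, and Igfals in CPM (vertical log axes) for the 14 groups, with 1 point per mouse in order of level and a black line at the median. C57BL/6J is the lowest strain on CD for Ghr, Igf1, and Igfals, and CAST/EiJ the highest for Igf1 and Igfals.

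Socs2 (chromosome 10, 95385362 to 95417180, minus strand) encodes a suppressor of GH receptor signaling, and mice of 1 group often differed severalfold in it. Its diet effect differed between strains (F test adjusted p = 0.00989), with a rise in 129S1/SvImJ and negative estimates in the other 6 strains. In 129S1/SvImJ the 7 CD mice had 6.42 to 28.2 CPM (median 11.7) and the 6 WD mice 19.4 to 38.5 (median 28.6), at 1.21 ± 0.41 (adjusted p = 0.0185). In C57BL/6J the CD mice had 19.7 to 120.2 CPM (median 38.5) and the WD mice 6.34 to 51.4 (median 22.6), at -0.92 ± 0.34 (adjusted p = 0.0337). Its 2 cohorts went opposite ways, with mean log2 differences of -1.75 and 0.26, and the call was lost with cohort as a covariate (adjusted p = 0.13), with edgeR (0.0944) and DESeq2 (0.102), without the filter on low counts (0.052), in a fit of the strain alone (0.191), and without any of 7 mice. The rise in 129S1/SvImJ held in both cohorts, under all 10 other settings, and without any 1 mouse (adjusted p up to 0.0495). The mean over strains was a fall of -0.47 ± 0.15 (adjusted p = 0.0065).

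Cish (chromosome 9, 107296026 to 107302784, plus strand), another STAT5-induced suppressor, was the scarcest and most uneven transcript, at 1.05 to 39.9 CPM. Within groups its median coefficient of variation was 76.8%. In 129S1/SvImJ the CD mice had 1.77 to 10.9 CPM (median 3.03) and the WD mice 6.50 to 37.1 (median 27.6). The CD group's top mouse, replicate 2 at 10.9 CPM, was the only 1 above 3.41, and 4 of the 6 WD mice lay above it. The log2 fold change was 2.59 ± 0.79 (adjusted p = 0.00858), and it stayed between 2.41 and 2.91 over all other settings and without any 1 mouse. A/J, with 1.95 to 4.95 CPM (median 2.42) on CD and 3.94 to 15.7 (median 7.38) on WD, had an estimate of 1.42 with an interval from -0.60 to 3.45. In the remaining 5 strains the intervals all held -0.97 to 1.23, and a difference between strains was not called (F test adjusted p = 0.172). The mean over strains, 0.57 ± 0.30, did not pass (adjusted p = 0.103), although it did with edgeR (0.017), DESeq2 (0.00974), and cohort as a covariate (0.0412). Cish shares 479 and 261 exonic bases with Gm17041 and Gm17040 on the opposite strand. Their median counts were 0 and 5 reads against 319 for Cish.

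Socs3 (chromosome 11, 117966079 to 117970047, minus strand) is induced by STAT3 and limits IL-6 and GH signaling. It was called in none of the strains. The widest estimates were -0.73 ± 0.30 in CAST/EiJ (adjusted p = 0.0783), where CD mice had 10.9 to 54.9 CPM (median 15.7) and WD mice 7.67 to 22.2 (median 10.2), and -0.72 ± 0.41 in A/J. The CAST/EiJ estimate passed with edgeR (adjusted p = 0.0331) and DESeq2 (0.0227), and the mean over strains (-0.18, adjusted p = 0.214) with quality weights (0.0416). In 129S1/SvImJ, the strain with higher Socs2 and Cish on WD, it was 4.21 to 15.6 CPM (median 10.4) on CD and 8.03 to 21.3 (median 13.1) on WD, at 0.59 ± 0.34 (adjusted p = 0.2).

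**Figure D4:**
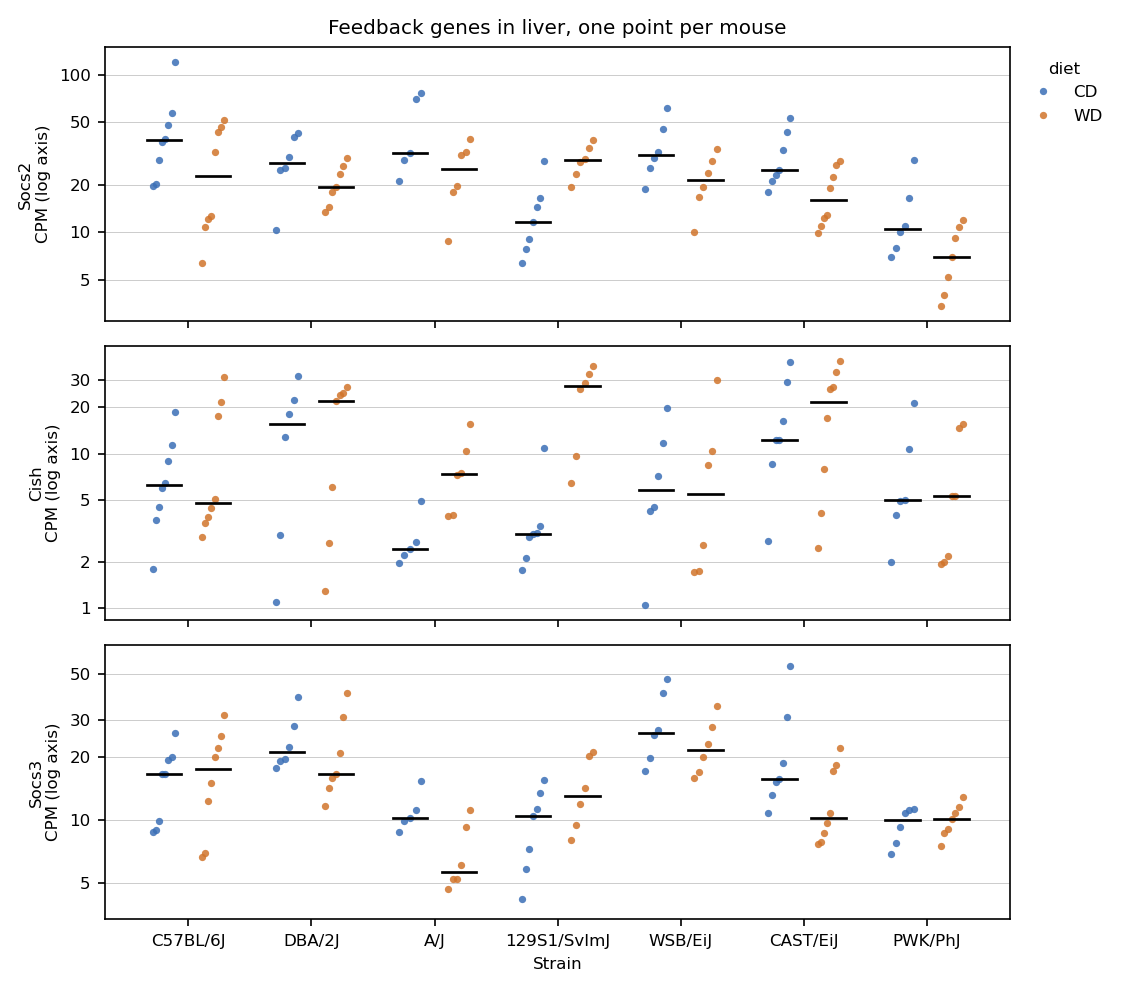
Socs2, Cish, and Socs3 in CPM (vertical log axes) for the 14 groups, with 1 point per mouse in order of level and a black line at the median. In 129S1/SvImJ, 3 of the 6 WD mice lie above every CD mouse for Socs2 and 4 of the 6 for Cish, and Cish spreads widely within groups.

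Strain differences on CD were called for 9 of the 10 genes by an F test (93.7% of all genes), all but Cish (adjusted p = 0.102), and on WD for 10 of 10 (93.9%). Such differences are thus the rule in these strains. In C57BL/6J, 1 gene was higher (29.5% of all genes) and 5 lower (28.4%) than in the mean of the other 6 strains. In DBA/2J 2 were higher (22.9%) and 2 lower (19.4%), in A/J 3 higher (20.5%) and 0 lower (16.2%), and in 129S1/SvImJ 2 higher (23.6%) and 5 lower (20.6%). In WSB/EiJ 5 were higher (25.4%) and 1 lower (23.8%), in CAST/EiJ 5 higher (32.4%) and 1 lower (31.5%), and in PWK/PhJ 1 higher (30.2%) and 4 lower (28.4%). Without C57BL/6J CD replicate 2 the counts were 1 higher and 4 lower in C57BL/6J and 0 higher and 4 lower in PWK/PhJ. In that fit 5214 of all genes were higher and 5097 lower in C57BL/6J, and 5758 and 5630 in PWK/PhJ. These 7 contrasts share their samples, and the strains also differed in cohort.

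C57BL/6J, the strain of the reference genome, was low in the receptor, the hormone, and its partner. Ghr was 387 ± 94.99 CPM there (SD, n = 8) against a mean of 551 over the other strains (log2 difference -0.53 ± 0.07, adjusted p = 9.13e-11). Igf1 was 463 ± 60.0 CPM against 712 (-0.58 ± 0.08, adjusted p = 6.17e-09), and Igfals 60.0 ± 18.4 CPM against 110.2 (-0.89 ± 0.10, adjusted p = 4.61e-12). In contrast, Socs2 was higher in C57BL/6J, 46.4 ± 32.5 CPM against 28.0 (0.77 ± 0.26, adjusted p = 0.00833), as it was in A/J (0.81 ± 0.32, adjusted p = 0.0356). CAST/EiJ was at the other end for Igf1, 976 ± 236 CPM (SD, n = 7) against 627 in the mean of the others (0.64 ± 0.09, adjusted p = 2.07e-09), and for Igfals, 138 ± 24.8 against 97.3 (0.54 ± 0.11, adjusted p = 1.48e-05). WSB/EiJ was higher as well in Igf1 (815 ± 68.8 CPM, SD, n = 6) and Igfals (129.7 ± 11.5).

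In order of the fitted CD means, Igf1 ran CAST/EiJ, WSB/EiJ, PWK/PhJ, DBA/2J, A/J, 129S1/SvImJ, C57BL/6J, a 2.11-fold span of mean CPM, and no neighbors in this order differed beyond their 95% interval. For Ghr the order was 129S1/SvImJ (650 ± 55.9 CPM, SD, n = 7), A/J (642 ± 47.6), DBA/2J, PWK/PhJ, WSB/EiJ, CAST/EiJ, C57BL/6J, and the last step alone was larger than its interval. Igfals likewise separated at the last step, between 129S1/SvImJ and C57BL/6J. Thus 129S1/SvImJ paired high Ghr with low Igf1, and CAST/EiJ the reverse. Stat5b was highest in DBA/2J (83.0 ± 15.3 CPM, SD, n = 6), above its neighbor WSB/EiJ, and the 6 other strains spanned 58.3 to 68.2 CPM with no step beyond its interval.

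In the strain order of Igfbp3, 4 of the 6 steps between neighbors were larger than their intervals. 129S1/SvImJ (59.9 ± 6.07 CPM, SD, n = 7) and CAST/EiJ (59.1 ± 4.85, n = 7) did not differ from each other, A/J (34.0), DBA/2J (23.1), and C57BL/6J (18.9) each stood below the strain before, PWK/PhJ (17.4) did not differ from C57BL/6J, and WSB/EiJ (12.6 ± 3.35, n = 6) was lowest. Strain took 85.8% of the sum of squares of log2 CPM for Igfbp3, with strain entered before diet, and diet 1.54%. WSB/EiJ combined the lowest Igfbp3 with the highest Igfbp2, 1036 ± 171 CPM against 510.2 in the mean of the other strains (log2 difference 1.08 ± 0.17, adjusted p = 2.14e-07), which was above its neighbor C57BL/6J. Igfbp1 on CD was higher in CAST/EiJ (1.46 ± 0.39, adjusted p = 0.000716) and WSB/EiJ (1.03 ± 0.41, adjusted p = 0.031) and lower in 129S1/SvImJ (-1.31 ± 0.37, adjusted p = 0.00249) and DBA/2J (-0.95 ± 0.40, adjusted p = 0.0462). Without the filter on low counts, the calls of lower Igfbp1 and Igfbp2 in DBA/2J on CD were lost. Neighbors in the strain order of Igfbp1 did not differ beyond their intervals.

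Socs2 was lower on CD in 129S1/SvImJ (13.5 ± 7.45 CPM, SD, n = 7) and PWK/PhJ (13.5 ± 8.15, n = 6) than in the other strains, whose means were 29.0 to 46.4 CPM. The step from DBA/2J to 129S1/SvImJ exceeded its interval. Socs3 was higher in WSB/EiJ (29.6 ± 11.9 CPM, SD, n = 6) and DBA/2J (24.3 ± 7.94, n = 6) and lower in 129S1/SvImJ and PWK/PhJ (9.75 ± 4.16 and 9.55 ± 1.88). For Cish, 72.9% of the sum of squares lay within groups. Diet took its largest shares in Igfbp1 (29.3%) and Igfbp2 (27.3%).

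Deviations of single mice from their group mean were compared for 9 pairs of these genes over the 93 mice, whose values share libraries and scaling. Igf1 and Igfals went together most (Pearson r 0.5677, Spearman rho 0.566), and r was 0.513 without the 2 mice farthest from the median of Igf1. It was positive in 6 of 7 strains, 0.609 to 0.870 (n = 11 to 16), and -0.154 in CAST/EiJ (n = 15). Igf1 and Socs2 followed at 0.469 (rho 0.446), from -0.103 in WSB/EiJ to 0.741 in C57BL/6J. Both partners of these pairs are STAT5 targets, as are Socs2 and Cish, whose r was 0.271. The part of STAT5 in these values was not tested. Ghr and Igf1 had an r of 0.261, Igfbp1 and Igfbp2 0.267, and Stat5b and Igf1 -0.203. The remaining pairs lay between -0.238 and 0.192. By contrast, the 14 group means of Igfbp1 and Igfbp2 correlated at 0.883.

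Genes with mean log2 CPM under 1 were set aside, and among the 11139 left, those whose 14 group means were most like Igf1 were Lypla1 (r 0.946), Mesd (0.921), and Fetub (0.920), and those most like Igfals included Bhmt2 (0.953) and Chrnb2 (0.942). For Igfbp1 they were Gm49336 (0.958), Ddx21 (0.930), and Snrpb (0.927), for Igfbp2 Col13a1 (0.944), Hmgn1 (0.898), and Klc1 (0.886), and for Igfbp3 Oxld1 (0.911), Tctn2 (0.906), and Ddo (0.905). Ghr was most like Gtf3c5 (0.914), Fn3k (0.911), and Tpmt (0.905), and Stat5b most like Tm9sf1 (0.910), Zfp212 (0.900), and Arhgap42 (0.897). Among the feedback genes, Socs2 was most like Zxdb (0.852), Lgals4 (0.850), and Ube2h (0.842), Socs3 most like Atp2a2 (0.933), Ift20 (0.927), and Slc35c1 (0.925), and Cish most like Myc (0.825), Phlda1 (0.824), and Zfp809 (0.815). With 14 points and this many genes, high values are to be found for any pattern.

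Further genes of the pathway came from lists written with earlier results of these data known. Of 19 genes of GH receptor signaling, 6 rose (27.1% of all genes) and 7 fell (24.5%) in the mean over strains, with a median of 0.02 against 0.01 for all genes. Grb10, an adaptor that binds the insulin and IGF receptors, rose (0.39 ± 0.08, adjusted p = 2.75e-05), and Irs2 (-0.61 ± 0.08, adjusted p = 2.1e-09), Irs1 (-0.49 ± 0.08), and the prolactin receptor Prlr (-0.51 ± 0.14) fell. Of 16 genes for IGF ligands, receptors, and binding, 13 were tested, and 6 rose (27.1% of all genes) and 2 fell (24.5%), with a median of 0.16. They included Igfbp5 (0.41 ± 0.07, adjusted p = 1.19e-06), Stc1 (0.62 ± 0.22), and Stc2 (0.46 ± 0.17), the last a pair of inhibitors of the protease PAPP-A. Stc1 and Stc2 had few reads, with medians of 6 and 14 per mouse. Within single strains Stc1 was never called, and Stc2 was called only in PWK/PhJ (1.17, adjusted p = 0.00303). Of 8 FOXO1 targets and partners, a list that includes Foxo1 and Foxo3 themselves, 0 rose (27.1%) and 5 fell (24.5%) in the mean (median -0.45). The diet effect differed between strains for all 8 (37.5% of all genes). G6pc, the catalytic subunit of glucose-6-phosphatase, fell by 1.65 on the log2 scale (SE 0.15, adjusted p = 1.35e-16), and by 3.35 in 129S1/SvImJ. In the 5 strains where Igfbp1 fell, the counts for these 8 genes were unlike. In CAST/EiJ 0 rose and 6 fell (9.73% of all genes), with G6pc (-0.40, adjusted p = 0.497) and Pck1 (-0.68, adjusted p = 0.1) not called. In 129S1/SvImJ 4 fell (13.6%) and 0 rose (14.5%), in DBA/2J 2 (7.77%) and 0 (10.2%), and in A/J 1 (4.64%) and 0 (4.39%). In C57BL/6J, by contrast, 2 fell (11.9%) and 3 rose (14.3%). In PWK/PhJ 2 fell (14.5%) and 1 rose (15.1%), and in WSB/EiJ 0 fell (3.97%) and 0 rose (4.97%).

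Many liver genes that differ between the sexes follow the pattern of GH secretion. Of 20 female-biased genes measured in these males, 11 fell on WD in PWK/PhJ (14.5% of all genes) and 0 rose (15.1%, median -1.86, all genes -0.01), and the diet effect differed between strains for 12 of the 20 (37.5%). Sult3a1, a sulfotransferase, was 82.7 to 588 CPM (median 153) in the 6 PWK/PhJ mice on CD and 0.116 to 1.49 (median 0.519) in the 7 on WD. The log2 fold change was -8.65 ± 0.51 (adjusted p = 5.17e-25, F test between strains 1.84e-08). Cyp3a44, a cytochrome P450, went from 13.5 to 43.8 CPM (median 29.5) to 0.0858 to 0.847 (median 0.243), at -6.75 ± 0.67 (adjusted p = 1.63e-13). Reads of Cyp3a44 can be shared with near-identical Cyp3a genes, so its level is uncertain. On CD, PWK/PhJ was higher than the other 6 strains' mean in 12 of the 20 (30.2% of all genes). It was lower in 3 (28.4%). On WD 3 rose (10.2%) and 0 fell (7.77%) in DBA/2J, and 3 rose (4.39%) and 0 fell (4.64%) in A/J. In CAST/EiJ 2 rose (9.77%) and 4 fell (9.73%), and in WSB/EiJ 2 rose (4.97%) and 2 fell (3.97%). In 129S1/SvImJ 1 rose (14.5%) and 2 fell (13.6%), and in C57BL/6J 2 rose (14.3%) and 1 fell (11.9%). Without CD replicate 2, C57BL/6J had 3 and 1. In other strains Sult3a1 and Cyp3a44 had other patterns. Sult3a1 was at 1624 to 3078 CPM in CAST/EiJ on CD and 2319 to 3072 on WD, and its highest value in the 5 remaining strains was 0.728 CPM. Cyp3a44 was at 9.18 to 27.2 CPM in A/J on CD and 3.54 to 28.5 on WD. In PWK/PhJ, Ghr was not called, at 464 to 542 CPM (median 482) on CD and 461 to 568 (median 489) on WD, and its interval was -0.19 to 0.19. Igf1 fell there (-0.31, adjusted p = 0.0425), a call lost under 5 of 10 other settings. Igfals (-0.35, adjusted p = 0.063) and Socs2 (-0.86, adjusted p = 0.178) were not called. A link between these genes and the female-biased list was not tested. Xist stayed at or below 3.44 CPM in these mice as in all others.

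**Figure D5:**
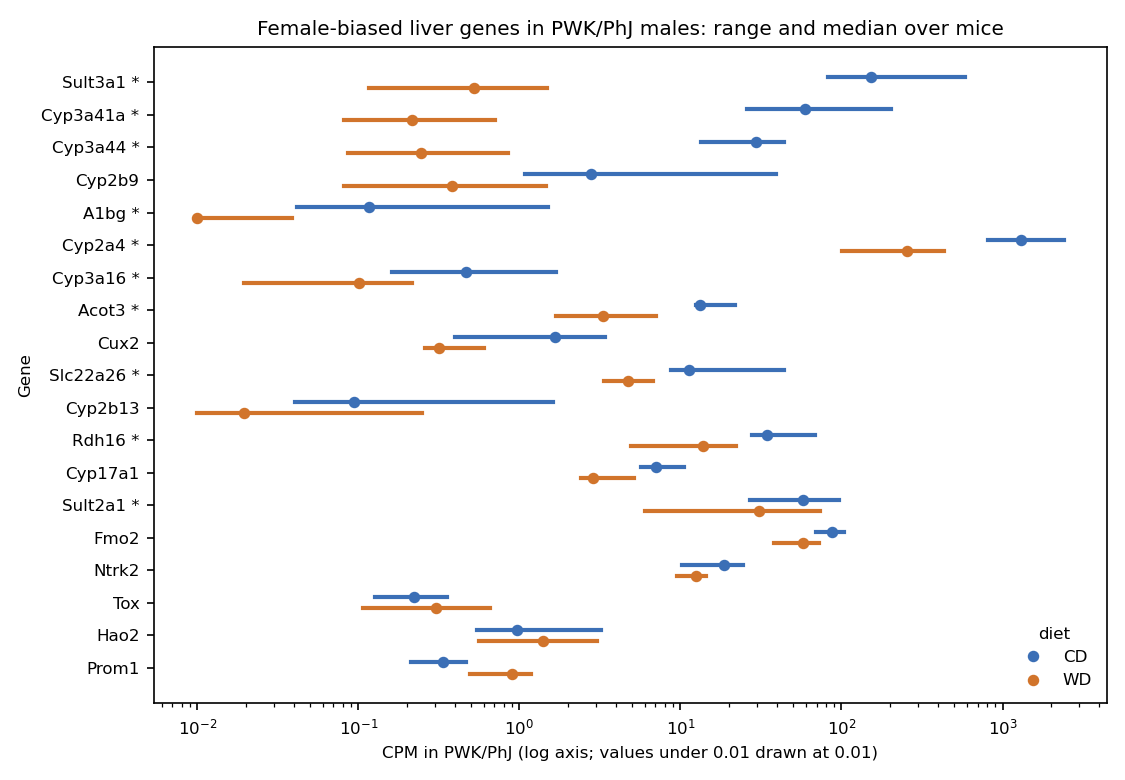
Female-biased genes in male PWK/PhJ mice on CD and WD, in CPM on a log axis, with a dot at the median of each group and a bar from the lowest to the highest mouse. Values under 0.01 CPM are drawn at 0.01, and an asterisk marks an adjusted p under 0.05. Sult3a1, Cyp3a41a, and Cyp3a44 lie more than an order of magnitude lower on WD without overlap.

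Cyp3a41a in this plot was singled out after its values were seen. Of 17 male-biased genes, 4 fell (4.64% of all genes) and 0 rose in A/J (median -0.67) and 5 rose (14.3%) and 0 fell in C57BL/6J (median 0.30). In the mean over strains 4 rose (27.1%) and 3 fell (24.5%), with a median of -0.09. Without the C57BL/6J mouse with high Gpnmb, the C57BL/6J count of 5 up and 0 down turned into 1 up and 4 down, so its direction rests on that animal. The same mouse moved the IGF list in C57BL/6J from 5 up and 1 down without it to 0 and 0 with it. Among all genes in C57BL/6J, 3175 rose and 2570 fell without it, against 2728 and 2270 with it. Selenbp2 rose in the mean over strains (0.67 ± 0.13, adjusted p = 7.62e-06), as did Cyp4a12b (0.75 ± 0.19), while Hsd3b5 (-0.89 ± 0.31) and Susd4 (-0.60 ± 0.14) fell.

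Of 22 IL-6 and STAT3 response genes, 12 rose (27.1% of all genes) and 4 fell (24.5%) in the mean over strains. In C57BL/6J 14 rose (14.3%) and 0 fell (11.9%). Without CD replicate 2 the counts were 12 and 2, with 3175 and 2570 among all genes. In 129S1/SvImJ 10 rose (14.5%) and 1 fell (13.6%), and in PWK/PhJ 10 rose (15.1%) and 3 fell (14.5%). In CAST/EiJ 0 rose (9.77%) and 3 fell (9.73%). Lcn2, which encodes an iron-binding acute-phase protein, rose most in the mean (3.08 ± 0.27, adjusted p = 4.72e-17), followed by Saa2 (2.33 ± 0.32), Saa1 (2.14 ± 0.29), and Orm2 (1.87 ± 0.21). Socs3 was not called in any of these strains, and its difference from the list was not tested. Its log2 fold change was 0.05 (interval -0.50 to 0.60) in C57BL/6J, 0.09 (-0.60 to 0.79) in PWK/PhJ, 0.59 (-0.09 to 1.26) in 129S1/SvImJ, and -0.73 (-1.33 to -0.13) in CAST/EiJ. Lcn2 in C57BL/6J went from 2.45 to 42.9 CPM (median 4.10) to 48.6 to 128 (median 76.3). In the WSB/EiJ mouse with 10892 CPM of Saa1, Socs3 was the highest of its group, 35.2 CPM against 15.9 to 27.8, and Stat5b was too, 99.3 against 66.6 to 77.0.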

How the data were processed

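Liver RNA of 93 mice was sequenced (SMARTER mRNA-Seq kit, BGISEQ-500). The authors mapped reads to the C57BL/6J reference (STAR 2.7.1a, GRCm38, per the labels) and deposited raw read counts per Ensembl gene; the annotation release and strand setting are not given in the sources used here. Symbols and coordinates came from GENCODE M21, which named 53274 of 53465 genes, and promoter windows from RefSeq on GRCm38.p6.

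Counts were fitted with limma-voom (limma 3.58.1, edgeR 4.0.16, R 4.3.3) on TMM-scaled library sizes, with the 14 groups of strain and diet in 1 fit. Genes passed filterByExpr with a minimum count of 10, and p-values were Benjamini-Hochberg adjusted within each comparison over 19110 genes (threshold 0.05). CPM used TMM-scaled library sizes, and log2 CPM a prior count of 2. Replicates are single mice, so p-values measure the spread between mice. Shares of the sum of squares are of log2 CPM, with strain entered first, then diet, then their interaction. They are not divided by degrees of freedom, of which strain has more than diet. The fit was run on simulated counts with the same spread setting for every gene and no strain differences. That check does not bear on calls in the more uneven genes of the axis.

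All 10 genes of the axis are named. From each pathway list, the 4 genes with the largest mean diet effect among those called are named, and for each axis gene the 3 genes most alike over the 14 group means. Some genes that these rules pick are not reported here, and counts over lists include them. The genes and lists were chosen with earlier results of these data known. Alternatives were relative log expression (RLE) size factors, upper-quartile scaling, 2 other filters, edgeR's quasi-likelihood test, DESeq2 1.42.0, voom quality weights, cohort or RNA integrity number as a covariate, a fit per strain, a fit without CAST/EiJ and PWK/PhJ, and leaving out each A/J mouse. Leaving out each mouse of the other 6 strains, among them C57BL/6J CD replicate 2 and WSB/EiJ WD replicate 4, was added after seeing the data.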

Additional observations from a re-analysis of the deposited data

Results flagged for a closer look

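Of 140 combinations of gene and group, 9 held a mouse far from its groupmates by Dixon's criterion, where chance gives about 1 in 20. Ghr was low in C57BL/6J WD replicate 3 (291 CPM, others 430.1 to 527) and in WSB/EiJ WD replicate 4 (446 CPM, others 581 to 651), and Stat5b was high in the latter mouse (99.3 CPM, others 66.6 to 77.0). Igfbp3 was high in C57BL/6J CD replicate 2 (38.6 CPM, others 12.6 to 19.8) and low in A/J WD replicate 6 (45.4 CPM, others 51.7 to 53.8) and PWK/PhJ CD replicate 5 (13.0 CPM, others 17.0 to 19.0). Igf1 was high in 129S1/SvImJ WD replicate 6 (633 CPM, others 506 to 549.6), Cish in 129S1/SvImJ CD replicate 2 (10.9 CPM, others 1.77 to 3.41), and Stat5b in DBA/2J WD replicate 1 (79.1 CPM, others 62.96 to 66.9). C57BL/6J WD replicate 3 also had the highest Igfbp1 of its group, 199.6 CPM against 30.0 to 90.4, and 104 CPM of Gpnmb against 3.45 to 47.3.

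The diet effect differed between the 7 strains by the limma F test for 5 genes, Igfbp3 (adjusted p = 2.68e-05), Igfbp2 (0.000485), Stat5b (0.00956), Socs2 (0.00989), and Igfals (0.0416). Of these, Socs2 had called effects of opposite sign, up in 129S1/SvImJ and down in C57BL/6J.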

How the results depend on the processing

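No paired analysis was possible because the labels carry no replicate numbers shared between groups. Of values for single genes under settings other than leaving out a mouse, 733 kept their direction and side of the threshold, 18 lost the threshold, 28 passed it, and 11 changed sign. The number of axis genes called moved by over 1.5 times in 23 of 169 cases. Without a filter beyond 1 count it was 2 for DBA/2J against the other strains on CD, and for the diet effect 3 in C57BL/6J, 2 in 129S1/SvImJ, and 1 in WSB/EiJ. Fits per strain gave 5 in A/J, 3 in C57BL/6J, 3 in CAST/EiJ, and 1 in WSB/EiJ. CAST/EiJ had 2 with upper-quartile scaling, edgeR, and DESeq2. PWK/PhJ had 0 with RLE size factors, upper-quartile scaling, at least 10 counts in every mouse, edgeR, and DESeq2, 3 with quality weights, and 2 with cohort as a covariate. WSB/EiJ had 1 with at least 10 counts in every mouse, DESeq2, and cohort, and 2 with quality weights. Without CAST/EiJ and PWK/PhJ the effect differed between strains for 3 genes. DESeq2 was run as a Wald test and gave no F test. The cause was not tested.

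Changes of sign were all in effects that were not called. With quality weights they were Cish in DBA/2J (-0.066), Igfbp3 in PWK/PhJ (-0.024), and Socs3 in C57BL/6J (-0.22). Cish in WSB/EiJ was 0.18 with edgeR and 0.18 with DESeq2. Ghr in PWK/PhJ was 0.0081 with RLE size factors, 0.028 with upper-quartile scaling, 0.026 with at least 10 counts in every mouse, 0.0080 with DESeq2, 0.0029 with RNA integrity number, and 0.011 in the fit per strain.

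Leaving out 1 mouse at a time gave counts of 3 to 5 in C57BL/6J, 1 to 3 in CAST/EiJ, 0 to 2 in PWK/PhJ, and 0 to 1 in WSB/EiJ. The log2 fold change ran from -0.31 to 0.43 for Cish in CAST/EiJ, -0.55 to 0.55 for Cish in DBA/2J, -0.61 to 0.24 for Cish in WSB/EiJ, -0.035 to 0.026 for Ghr in PWK/PhJ, -0.0068 to 0.11 for Igf1 in A/J, -0.028 to 0.16 for Igf1 in DBA/2J, -0.053 to 0.057 for Igfbp3 in PWK/PhJ, -0.23 to 0.13 for Igfbp3 in WSB/EiJ, and -0.095 to 0.22 for Socs3 in C57BL/6J. Cish had 40 reads in the mouse with the fewest and a median of 319, and 72.9% of its sum of squares lay within groups.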
